A study of Mus musculus with 80 samples.

Results

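The genes described here encode 10 factors that end transcription or form the 3′ end of RNA in mouse cells. They were chosen by symbol, and all 10 were found among the 22556 genes of the 6 expression tables. Zc3h4 and Wdr82 encode the restrictor complex, Pcf11, Xrn2 and Scaf8 act at the elongating polymerase, Nudt21 and Cpsf6 encode cleavage factor Im, and Cpsf3, Cstf3 and Rbbp6 encode parts of the cleavage and polyadenylation machinery. Their RNA was followed in chromatin-associated RNA sequencing (ChrRNA-seq) while METTL3, YTHDC1, ZCCHC8 or ZFC3H1 was removed.

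In mammalian cells the nascent transcript is cut behind a polyadenylation signal, the upstream part receives a poly(A) tail, and the downstream part is digested until the polymerase is released. The same machinery can act inside a gene, and transcripts that end early are often degraded in the nucleus. METTL3 is the catalytic subunit of the m6A writer, and YTHDC1 is the nuclear reader of m6A. ZCCHC8 is the scaffold of the NEXT complex, which hands unprocessed RNA to the nuclear exosome, and ZFC3H1 is the core of the PAXT connection, which does so for polyadenylated nuclear RNA.

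The cells were mouse embryonic stem cells (mESC) of Cast x 129S background in which a TetOn promoter replaced that of Xist, on the Cast allele in the METTL3, ZFC3H1 and transgene lines and on the 129S allele, with Bgl stem loops added to Xist, in the YTHDC1 and ZCCHC8 lines. Each endogenous protein carried an FKBP12 F36V tag, which dTAG-13 turns into a degron, so the controls carried the tag too. The series held 80 libraries in 32 groups. Each line was sampled untreated, after dTAG for 26 h, after doxycycline (Dox) for 24 h to induce Xist, and after both, with dTAG given 2 h ahead and kept during the 24 h of Dox. The METTL3 clones were G4 and H1 (N-terminal tag) and C3 and H5 (C-terminal tag), the ZCCHC8 clones Z4F and Z12H, and the ZFC3H1 clones 8H and 11A. The YTHDC1 clones Y9F and Y12H were sampled in 2 experiments, one held in a table shared with ZCCHC8 and the other in a separate table. GFP-METTL3 transgenes, wild type (WT) or with the D395A substitution that removes catalytic activity, were driven from Rosa26 in clone H5. WT_P2B3 and D395A_1F retained both X chromosomes (XX), whereas WT_1A and D395A_9F are labelled XiO and had lost the 129S X. Each transgene line was 1 clone in 2 experiments, and no degron line had more than 4 clones, so every p-value below covers those clones or repeat experiments only. Where the clone or experiment was a block, its own level was removed and the p-value measures how far responses differ between clones or experiments. Transgene fits without a block measure the spread between repeat experiments. In the main fits the spread was pooled over all lines and treatments of a table.

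Depth ran from 8583487 to 34392078 reads per library, and every value was a whole number of reads. The 6 stem cell markers summed to between 465 and 1910 CPM (read counts scaled to library size). Sox2 was listed at 0 in all 80 libraries and so added nothing to the sum, and the reason for this value was not tested. The cells were grown on mouse fibroblast feeders, whose 7 markers summed to 0.714 to 12.3 CPM. Genes shorter than 3 kb took 0.497 to 4.57% of reads, and both ends of that range lay in the METTL3 table. The RNA of the tagged gene was not called changed in its own line, and because the degron acts on protein this RNA does not check the depletion.

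Some of these genes have annotated transcripts that stop early. The ends of Cstf3 and Rbbp6 are shown because these 2 genes carried most of the changes below. In the RefSeq annotation of mm10, 3 of the 10 genes (Cstf3, Rbbp6 and Cpsf3) have a curated mRNA that ends before the last exon of the full one, against 5.14% of the 19049 table genes with a curated mRNA. Cstf3 lies at chr2:104590484-104665425 and Rbbp6 at chr7:122969637-123002572, both on the plus strand. The last 30 bases of their mRNAs, 5′ to 3′ on that strand with the polyadenylation signal AATAAA or ATTAAA in capitals, are as follows.
Cstf3 early end, chr2:104609400-104609429: tgcaacaacATTAAAacagtttcaatggtg
Cstf3 second early end, chr2:104611377-104611406: gaaAATAAAgctttgttaatacgttgttgt
Cstf3 full end, chr2:104665396-104665425: tttgaaaggAATAAAaggacctcaaaaaca
Rbbp6 early end, chr7:122980154-122980183: catgttcataAATAAAgttaacattctttt
Rbbp6 full end, chr7:123002543-123002572: tcagtaaacttttcacttgttgcaaatgta
The early Cstf3 mRNAs have 2 and 3 exons and stop 18.95 and 20.92 kb from the gene start, while the full mRNA has 21 exons over 74.94 kb. The early Rbbp6 mRNA has 3 exons and stops at 9.62 kb, while the full one has 18 exons over 32.01 kb. These Rbbp6 distances run from the most upstream start of its curated mRNAs, which lies downstream of the gene start given above. Searched on the transcribed strand, AATAAA stood in the last 30 bases of 51.1% of 20690 annotated mRNA ends, ATTAAA in 14.2%, and either in 63.5%. Neither hexamer was found in this window at the full Rbbp6 end or at either Cpsf3 end. Reads were counted over whole gene spans, introns included, so early and full transcripts of a gene cannot be told apart in any value below.

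The other genes called in the main fits lie at chr7:16399583-16437696 (Zc3h4, plus strand), chr9:106170925-106191706 (Wdr82, plus) and chr10:117344667-117376998 (Cpsf6, minus). Small annotated genes overlap Wdr82 (Mirlet7g), Scaf8 (Gm6242) and Cpsf3 (Gm25821) on the same strand, where reads in the shared stretch may not have been counted for either gene. None of the 10 genes lies on the X chromosome.

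All 10 genes were well covered, with at least 402 reads in every library. Across the 20 untreated libraries the median level per kb of gene span was highest for Cpsf6, at 12.9 CPM per kb. Rbbp6 (6.58), Wdr82 (6.46), Pcf11 (6.11) and Xrn2 (5.55 CPM per kb) followed, then Scaf8 (4.85), Cstf3 (4.66), Nudt21 (3.75), Zc3h4 (2.85) and Cpsf3 (1.74 CPM per kb). Cpsf6 stood apart from its neighbour, with 9.23 CPM per kb in its lowest library against 7.98 in the highest of Rbbp6. Every other pair of neighbours in this order overlapped across libraries. Zc3h4 ran from 1.06 to 3.72 CPM per kb, with its lowest value in METTL3 clone H1.

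**Figure D1:**
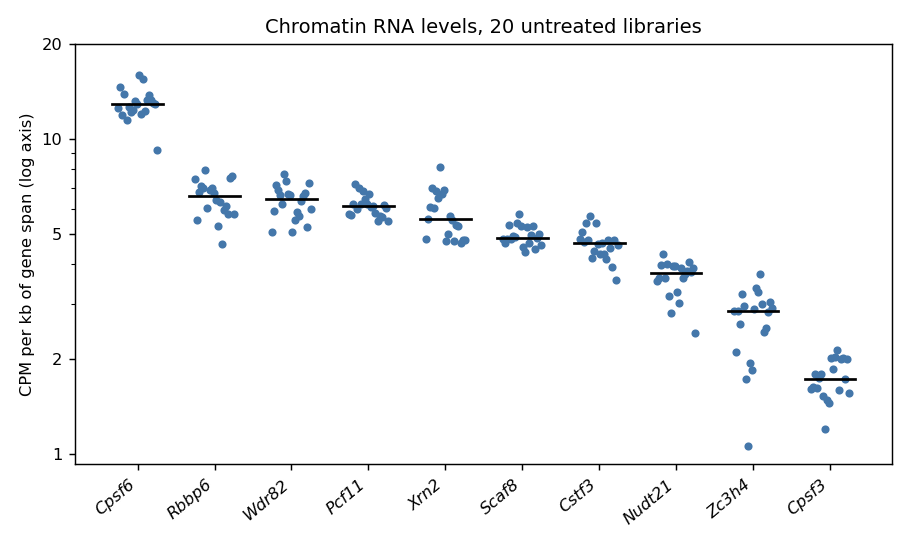
Chromatin RNA level of each gene in the 20 untreated libraries, in CPM per kb of gene span on a log axis, with a point per library and a bar at the median. The lowest Cpsf6 point is at 9.23 CPM per kb, above every point of the next gene, Rbbp6, and all later neighbours overlap.

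Responses to protein loss were tested with limma on log2(CPM + 1), with Benjamini-Hochberg adjustment over all genes tested and a call at an adjusted p under 0.05. Each line gave a comparison with Dox (dTAG and Dox against Dox) and one without (dTAG against untreated), which share clones but no libraries, and changes are log2 changes on that scale. Of the 18 comparisons, Cstf3 was called in 5 and always lower, Rbbp6 in 5 (higher in 4, lower in 1), Zc3h4 in 2, Cpsf6 in 2 and Wdr82 in 1. Pcf11, Xrn2, Scaf8, Nudt21 and Cpsf3 were called in none. These counts take the transgene lines without the experiment as a block; with it the D395A comparisons called Rbbp6 (higher) and Cpsf6 (lower) in 4, Pcf11 in 3, and Zc3h4, Cpsf3 and Cstf3 in 1 each. In these bulk samples a change in the share of cells that make an RNA cannot be told apart from a change in RNA per cell.

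**Figure D2:**
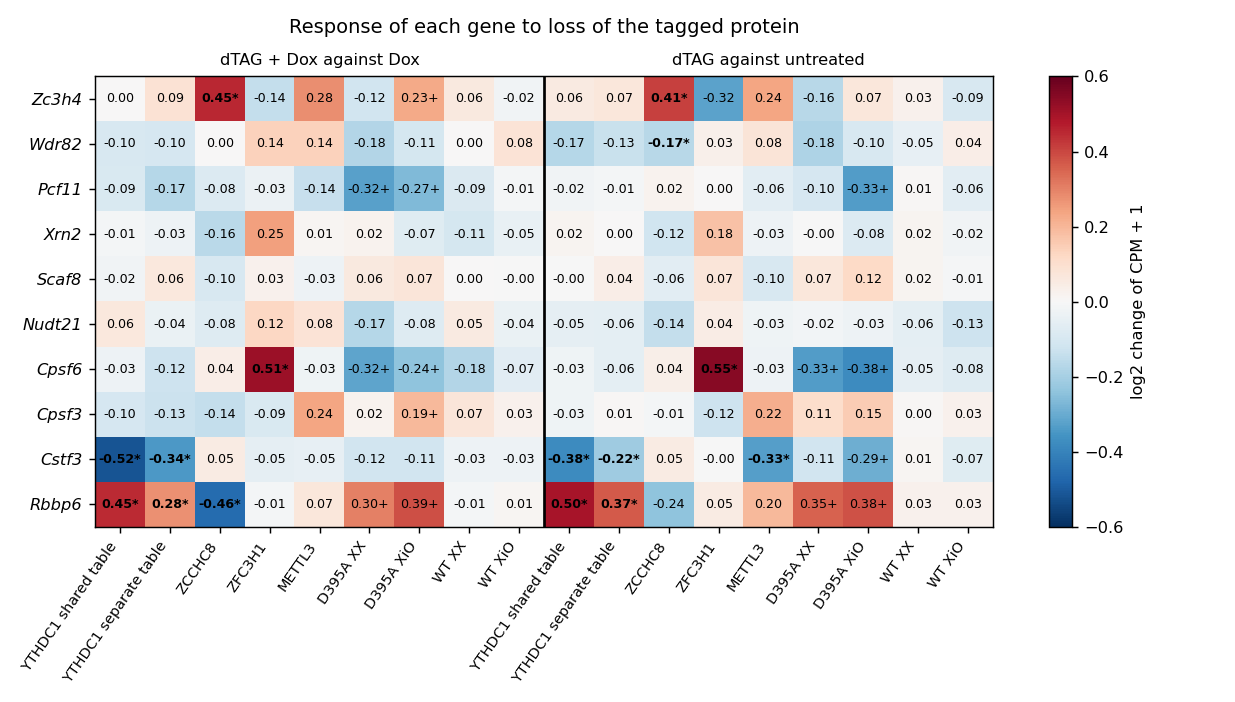
Log2 change of CPM + 1 of each gene (rows) after loss of the tagged protein in each line (columns), with Dox at left and without Dox at right. An asterisk marks a change called at an adjusted p under 0.05, and a plus sign one called only with the experiment as a block. The YTHDC1 columns show low Cstf3 and high Rbbp6, the ZCCHC8 columns high Zc3h4 and the ZFC3H1 columns high Cpsf6.

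Cstf3 RNA fell and Rbbp6 RNA rose after loss of YTHDC1 in both experiments, with and without Dox. Cstf3 encodes the CstF subunit that bridges its partners to the cleavage complex, and its own gene is a known target of intronic polyadenylation. Rbbp6 encodes a RING finger protein that activates cleavage. These were the 2 genes called of 10 in each of the 4 comparisons. Over all genes tested, 15.5% (with Dox) and 19% (without) were called in the shared table, and 14.7% and 17.8% in the separate table.

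In the shared table Cstf3 went from 407 (Y12H) and 416 CPM (Y9F) under Dox to 304 and 271 CPM after dTAG and Dox. Without Dox it went from 405 and 353 CPM to 305 and 277 CPM. The depleted libraries lay below the control libraries in both settings. The changes were -0.52 (SE 0.061, limma adjusted p = 4.052e-05) with Dox and -0.38 (SE 0.061, adjusted p = 0.0004806) without. Every alternative setting with both clones kept both calls. Leaving out 1 clone leaves 1 library per group, and gave -0.62 to -0.42 with Dox and -0.41 to -0.35 without. In the separate table Cstf3 went from 423 (Y12H) and 402 CPM (Y9F) to 352 and 299 CPM with Dox, and from 379 and 361 CPM to 336 and 302 CPM without. Again no depleted library reached a control library. Those changes were -0.34 (SE 0.061, limma adjusted p = 0.0006199) and -0.22 (SE 0.061, adjusted p = 0.01767). The call with Dox was lost without the clone as a block (adjusted p = 0.337). The call without Dox was kept by 3 of 6 alternatives and lost under median-ratio scaling, with no filter on low values and without the clone block, with adjusted p-values from 0.01496 to 0.5194 over the 6.

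Rbbp6 in the shared table went from 202 (Y12H) and 218 CPM (Y9F) under Dox to 266 and 310 CPM after dTAG and Dox. Without Dox it went from 226 and 217 CPM to 302 and 324 CPM. Groups did not overlap, and the changes were +0.45 (SE 0.114, limma adjusted p = 0.01392) and +0.50 (SE 0.114, adjusted p = 0.006306). The call with Dox was lost with no filter on low values. Leaving out 1 clone leaves 1 library per group, so any p-value would rest on the ZCCHC8 clones and only values are given. They were +0.40 to +0.50 with Dox and +0.41 to +0.58 without. In the separate table it went from 196 (Y12H) and 224 CPM (Y9F) to 216 and 299 CPM with Dox, and from 176 and 239 CPM to 237 and 297 CPM without. There the groups overlapped, because Y12H was the lower clone throughout, but each clone rose against itself. The changes were +0.28 (SE 0.068, limma adjusted p = 0.008849) and +0.37 (SE 0.068, adjusted p = 0.000727). Without the clone as a block, Rbbp6 was called in none of the 4 comparisons.

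The other 8 genes were not called on YTHDC1 loss. Wdr82, a WD40 protein shared by the restrictor and a histone methyltransferase complex, had changes of -0.10, -0.17, -0.10 and -0.13 in the 4 comparisons, with a smallest adjusted p of 0.0565. In the shared table it was called lower without Dox by edgeR (-0.18, adjusted p = 0.04881) and under median-ratio scaling (-0.18, limma adjusted p = 0.0463), and with Dox when only the groups compared were fitted (adjusted p = 0.02325). Pcf11, a polymerase tail-binding termination factor, had its lowest value in the separate table with Dox, at -0.17 (limma adjusted p = 0.06884), and fitting only the groups compared called it lower with Dox in both tables (adjusted p = 0.0138 separate, 0.02181 shared). Zc3h4, the other restrictor gene, ranged from 0.00 to +0.09. The median change of the 10 genes lay between -0.07 and 0.00, beside all-gene medians between -0.02 and +0.02. Stem cell marker sums in these libraries were 1260 to 1757 CPM, and their ranges overlapped before and after dTAG. The feeder sum did not overlap in the separate table without Dox, at 4.26 to 5.02 CPM untreated and 4.02 to 4.18 CPM after dTAG, and its part in the result was not tested.

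**Figure D3:**
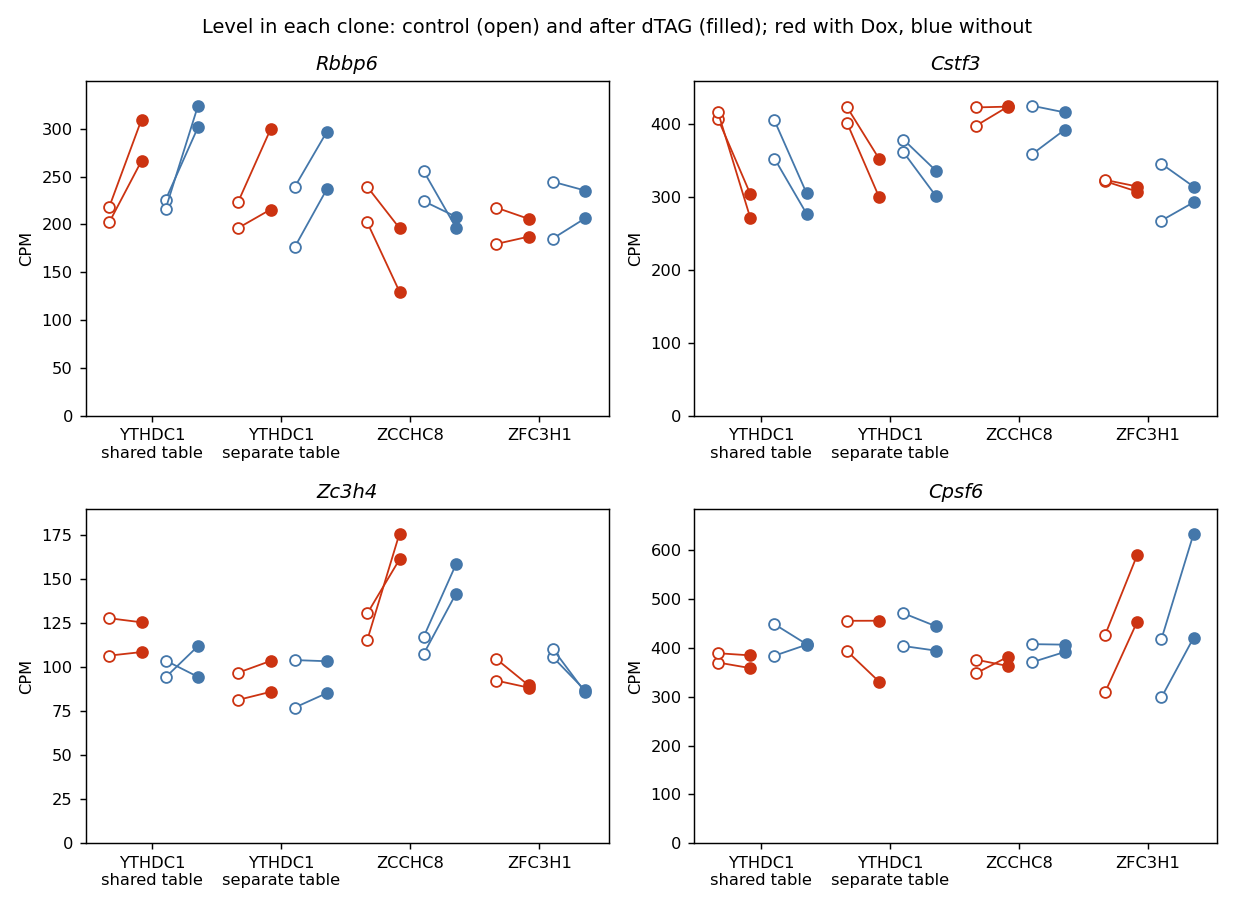
CPM of Rbbp6, Cstf3, Zc3h4 and Cpsf6 in each clone of the YTHDC1, ZCCHC8 and ZFC3H1 degron lines, with the control library open, the library after dTAG filled, and a line joining the same clone (red with Dox, blue without). Cstf3 falls in all 8 YTHDC1 pairs, Rbbp6 rises in those 8, Zc3h4 rises in the 4 ZCCHC8 pairs and Cpsf6 in the 4 ZFC3H1 pairs.

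After loss of ZCCHC8, Zc3h4 RNA rose with and without Dox, Rbbp6 fell with Dox and Wdr82 fell slightly without Dox. Zc3h4 encodes the zinc finger protein of the restrictor, which ends unproductive transcription early. Each comparison called 2 of the 10 genes, against 40.4% of all genes with Dox and 36.1% without. The median change of the 10 was -0.08 with Dox and -0.04 without, beside +0.04 and -0.01 for all genes.

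Zc3h4 went from 115 (Z12H) and 130 CPM (Z4F) under Dox to 176 and 161 CPM after dTAG and Dox, and from 108 and 117 CPM to 142 and 158 CPM without Dox. No depleted library overlapped its controls. The changes were +0.45 (SE 0.087, limma adjusted p = 0.0005848) and +0.41 (SE 0.087, adjusted p = 0.001603). Without clone Z12H the Zc3h4 change with Dox was +0.30, and without Z4F it was +0.60. Each rests on 1 library per group, with a spread taken from the YTHDC1 clones alone, so no call is read from it. Rbbp6 went from 202 (Z12H) and 239 CPM (Z4F) to 130 and 196 CPM with Dox, a change of -0.46 (SE 0.114, limma adjusted p = 0.004237). Without Dox it went from 256 and 224 CPM to 197 and 208 CPM, a change of -0.24 that was not called (adjusted p = 0.1085). Both clones were lower after dTAG in either setting. Wdr82 went from 129 (Z12H) and 138 CPM (Z4F) to 117 and 120 CPM without Dox, a change of -0.17 (SE 0.059, limma adjusted p = 0.03819). Its call was lost without the clone as a block, and leaving out 1 clone gave -0.20 to -0.14. With Dox its change was 0.00.

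Cstf3 changed by +0.05 in each setting and was not called, standing at 423 (Z12H) and 398 CPM (Z4F) under Dox and 424 CPM in each clone after dTAG and Dox. Xrn2, the exonuclease that degrades RNA behind the cleavage site, went from 422 and 379 CPM to 349 and 365 CPM with Dox, a change of -0.16 that was not called (limma adjusted p = 0.05761). Median-ratio scaling moved the all-gene median by 0.11 in this comparison and called Xrn2, Scaf8 and Cpsf3 lower as well, at -0.28, -0.21 and -0.25. Without Dox the stem cell marker sum was 1710 to 1716 CPM untreated and 1829 to 1876 CPM after dTAG, and the feeder sum 2.78 to 3.73 and 3.88 to 5.26 CPM. With Dox the short-gene share was 1.24 to 1.39% in controls and 1.69% in both depleted libraries, and without Dox it was 1.16 to 1.27% and 1.30 to 1.51%. The part of these values in the results was not tested.

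Because YTHDC1 and ZCCHC8 libraries stood in 1 table, the difference of their responses was tested directly, and it was called for Cstf3, Rbbp6 and Zc3h4 in both settings. The response to ZCCHC8 loss less that to YTHDC1 loss was +0.57 (SE 0.087, limma adjusted p = 0.0001373) for Cstf3 with Dox and +0.43 (adjusted p = 0.001832) without. For Rbbp6 it was -0.91 (SE 0.162, limma adjusted p = 0.0004923) with Dox and -0.74 (adjusted p = 0.003086) without. Zc3h4 gave +0.45 (SE 0.123, limma adjusted p = 0.01082) and +0.36 (adjusted p = 0.04285). The same test called 29.6% of all genes with Dox and 25.1% without, beside 3 of these 10. With Dox, Rbbp6 was called in both lines and in opposite directions, higher without YTHDC1 and lower without ZCCHC8.

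Cpsf6 RNA rose in both clones after loss of ZFC3H1. Cpsf6 encodes the large subunit of cleavage factor Im, which binds UGUA motifs upstream of the cleavage site and favours distal sites. It went from 308 (11A) and 425 CPM (8H) under Dox to 453 and 590 CPM after dTAG and Dox. Without Dox it went from 298 and 417 CPM to 421 and 633 CPM. Clone 8H was higher throughout, and the clones rose in parallel. The changes were +0.51 (SE 0.076, limma adjusted p = 0.007582) and +0.55 (SE 0.076, adjusted p = 0.005918), and in a fit without the clone as a block neither was called. Over all genes, 3.15% were called with Dox and 2.15% without, beside 1 of the 10. The median change of the 10 was +0.01 and +0.04, beside 0.00 and -0.01 for all genes.

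Nudt21, the partner subunit of Cpsf6 in cleavage factor Im, went from 47.7 (11A) and 70.2 CPM (8H) to 51.0 and 78.2 CPM with Dox, a change of +0.12 (limma adjusted p = 0.4911). Xrn2 went from 302 and 334 CPM to 371 and 384 CPM with Dox, with no overlap, a change of +0.25 that was not called (adjusted p = 0.1093). Zc3h4 went from 106 and 110 CPM to 86.9 and 86.0 CPM without Dox, a change of -0.32 that was not called (adjusted p = 0.07016). Both were called when the fit used only the groups compared. Stem cell marker sums (1072 to 1725 CPM) and feeder sums (1.43 to 6.44 CPM) overlapped before and after dTAG. The short-gene share with Dox was 1.36 to 1.63% in controls and 1.66 to 1.90% after dTAG, and its part in the result was not tested.

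Loss of METTL3 left no member called with Dox and only Cstf3 called without. With Dox 10.5% of all genes were called and without Dox 23.3%. With Dox 1 of the 10 had an unadjusted p under 0.05 by limma (Cpsf3, the cleavage endonuclease, +0.24, adjusted p = 0.1555), against 4245 of all genes. There edgeR called 0 of the 10, beside 892 of 13367 genes. Cstf3 without Dox went from 405 (C3), 314 (G4), 331 (H1) and 348 CPM (H5) to 343, 224, 243 and 312 CPM. It was lower in 4 of 4 clones, a change of -0.33 (SE 0.104, limma adjusted p = 0.03782), but the call was lost when any one clone was left out. With Dox its clones split, at -0.20 (C3), -0.09 (G4), +0.14 (H1) and -0.04 (H5). The all-gene medians of these clones were +0.38 (C3), +0.03 (G4), +0.07 (H1) and +0.30 (H5).

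After METTL3 loss the all-gene median change was +0.23 with Dox and +0.21 without, beside medians of +0.04 and -0.03 for the 10 genes. Median-ratio scaling moved all genes by 0.25 and 0.23 and gave Cstf3 without Dox -0.59 (limma adjusted p = 0.02352, over a range of 0.02352 to 0.3016 across 10 alternatives). It gave Cpsf3 with Dox -0.04 (limma adjusted p = 0.8159). Wdr82, Xrn2, Nudt21, Cpsf3 and Rbbp6 with Dox went from above 0 to below it under this scaling. Without Dox so did Zc3h4, Wdr82, Cpsf3 and Rbbp6. The genes called at large were 1149 higher and 259 lower with Dox by limma, and 392 and 500 by edgeR, whose normalization also rescales. Without Dox they were 2260 and 848 by limma, and 1155 and 1335 by edgeR.

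The 4 METTL3 clones also disagreed among themselves. Without Dox, Zc3h4 went from 63.1 (G4) and 38.7 CPM (H1) to 96.1 and 78.6 CPM in the N-terminal clones, changes of +0.60 and +1.00. In the C-terminal clones it went from 71.2 (C3) and 67.6 CPM (H5) to 50.1 and 60.7 CPM, changes of -0.50 and -0.15. With Dox it was the C-terminal clones that were higher after dTAG, at +0.82 (C3) and +0.40 (H5) against 0.01 (G4) and -0.11 (H1). The all-gene medians with Dox split the same way, at +0.38 (C3), +0.30 (H5), +0.03 (G4) and +0.07 (H1). Without Dox they were +0.15 (G4), +0.26 (H1), +0.15 (C3) and +0.27 (H5). Changes and signs of single clones here are not net of these medians. Of the 10 genes, 6 (Zc3h4, Wdr82, Pcf11, Xrn2, Nudt21 and Cpsf6) had opposite signs in N- and C-terminal clones without Dox, a pattern held by 17% of all genes tested, and 1 (Scaf8, a polymerase tail-binding protein that restrains early polyadenylation) had it with Dox, against 15.7%. Xrn2 without Dox went from 422 (G4) and 527 CPM (H1) to 356 and 357 CPM, and from 435 (C3) and 447 CPM (H5) to 606 and 515 CPM. The split was not tested. Without Dox the short-gene share went from 2.53 to 2.46% in G4, 1.02 to 1.89% in H1, 0.797 to 1.22% in C3 and 1.78 to 3.38% in H5. The stem cell marker sum went from 1597 to 1564 CPM in G4, 1102 to 1368 CPM in H1, 1250 to 924 CPM in C3 and 1170 to 1150 CPM in H5. With Dox the short-gene share of C3 went from 0.497 to 4.57%. The part of these measures in the values was not tested.

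**Figure D4:**
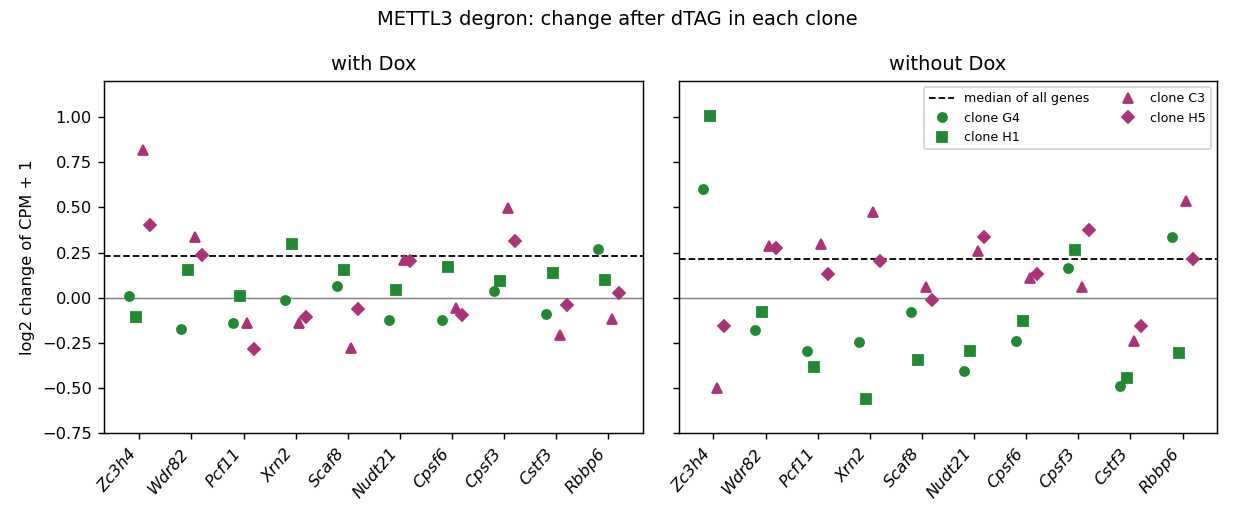
Log2 change of CPM + 1 of each gene after dTAG in each METTL3 clone, with Dox at left and without Dox at right; green marks N-terminal and magenta C-terminal tags, and the dashed line is the median of all genes. Zc3h4 spreads from -0.50 to +1.00 without Dox, and Cstf3 alone is below 0 in all 4 clones there.

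In the transgene lines, wild-type GFP-METTL3 left the 10 genes near their controls after dTAG. Limma called 0 of 10 in all 4 WT comparisons, with 0 at an unadjusted p under 0.05, and it called 0 of all genes (0%), with 14 to 39 at an unadjusted p under 0.05. edgeR called 0 as well. The largest change of a member was -0.18, for Cpsf6 in WT XX with Dox. With the experiment number as a block, which pairs wells split from the same cells, 0 of all genes and 0 members were still called.

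With the D395A transgene the unblocked fit also called 0 of the 10, while 3 and 2 (XX, with and without Dox) and 2 and 4 (XiO) had an unadjusted p under 0.05. By that fit 3.19% and 6.01% of all genes were called in XX cells, and 0.0521% and 0.402% in XiO cells. edgeR called 1 member, Cpsf6 in XX cells without Dox, where it called 718 of 13364 genes. With the experiment as a block, 3 and 2 members were called in XX cells, against 29.3% and 37.5% of all genes, and 5 and 4 in XiO cells, against 31.1% and 34.4%. Nothing is read from these member counts, and the values of single genes follow. The median change of the 10 lay between -0.12 and -0.05 in the 4 comparisons, beside all-gene medians of +0.06 to +0.12.

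Rbbp6 and Cpsf6 were called in all 4 blocked D395A comparisons, Rbbp6 higher and Cpsf6 lower. Rbbp6 in D395A_1F went from 194 and 196 CPM (experiments 1 and 2) to 237 and 243 CPM with Dox, and from 191 and 196 CPM to 238 and 256 CPM without. In D395A_9F it went from 158 and 130 CPM to 208 and 169 CPM with Dox, and from 169 and 149 CPM to 230 and 186 CPM without. All 8 pairs were higher and no group overlapped, whereas the WT_P2B3 pairs stood at 192 and 230 CPM against 205 and 213 CPM with Dox. The Rbbp6 changes with the block were +0.30 (limma adjusted p = 0.005082) and +0.35 (0.001245) in XX cells, and +0.39 (0.0004829) and +0.38 (0.0004044) in XiO cells. Without the block they had adjusted p-values of 0.2832, 0.1548, 0.3752 and 0.3395.

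Cpsf6 in D395A_1F went from 388 and 453 CPM to 328 and 345 CPM with Dox, and from 429 and 444 CPM to 346 and 347 CPM without. In D395A_9F it went from 372 and 355 CPM to 324 and 291 CPM with Dox, and from 386 and 397 CPM to 334 and 272 CPM without. Every D395A pair was lower. In WT_P2B3 every pair was lower too, with changes of -0.07 and -0.28 with Dox and -0.09 and -0.02 without (experiments 1 and 2). WT_1A changed by -0.004 and -0.14 with Dox and by +0.06 and -0.22 without. The blocked changes were -0.32 (limma adjusted p = 0.003064), -0.33 (0.001617), -0.24 (0.03658) and -0.38 (0.00347) in that order, and the adjusted p-values without the block were 0.09508, 0.05943, 0.6573 and 0.3081. Pcf11 in D395A_1F went from 176 and 175 CPM to 145 and 135 CPM with Dox, and in D395A_9F from 160 and 153 CPM to 125 and 122 CPM without. It was called lower with the block in XX cells with Dox (-0.32, limma adjusted p = 0.003461) and in XiO cells with and without (-0.27, 0.003771, and -0.33, 0.0007918), against 0.07663, 0.4177 and 0.2264 without it. In XiO cells the block also called Zc3h4 (+0.23) and Cpsf3 (+0.19) higher with Dox and Cstf3 lower without (-0.29, limma adjusted p = 0.001682). The all-gene median with Dox was +0.11 there. Median-ratio scaling gave +0.07 for Zc3h4 and +0.04 for Cpsf3, and the block together with that scaling called neither of them with Dox.

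**Figure D5:**
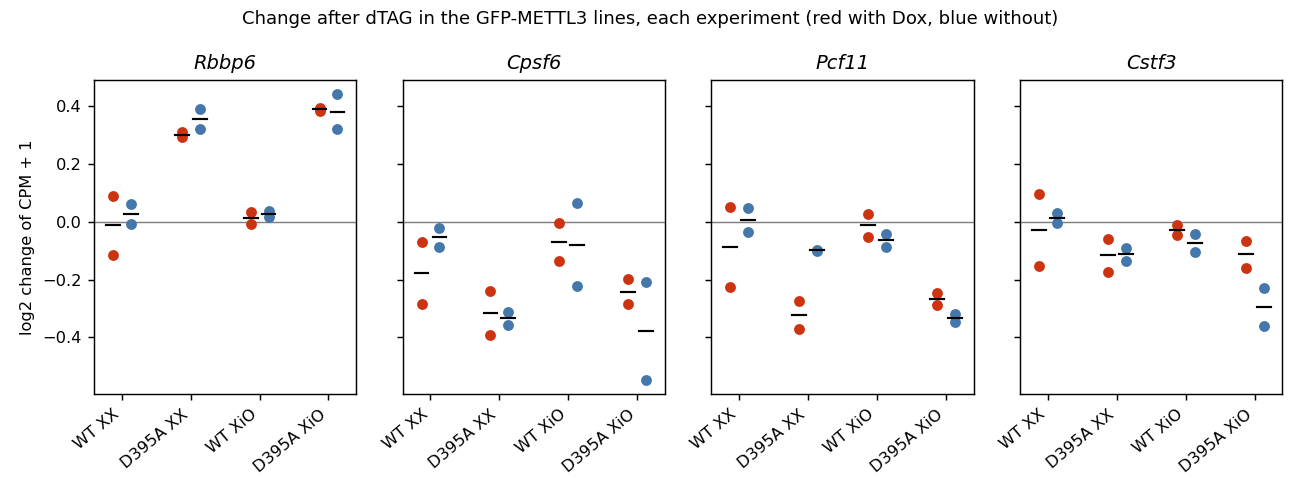
Log2 change of CPM + 1 of Rbbp6, Cpsf6, Pcf11 and Cstf3 after dTAG in the 4 GFP-METTL3 lines, with a point per experiment, a bar at the mean of 2, red with Dox and blue without. Rbbp6 is above 0 and Cpsf6 below 0 in all 8 D395A points each. Some WT points of Cpsf6 are also low. At -0.28, the WT XX point of experiment 2 with Dox lies below the D395A points of experiment 1 with Dox, at -0.24 (XX) and -0.20 (XiO).

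The difference between the D395A and WT responses was tested with Dox. Unblocked, limma called 0 of the 10 in XX and in XiO cells, with 0 at an unadjusted p under 0.05, and 0.015% and 0% of all genes (1000 and 512 at an unadjusted p under 0.05), and edgeR called 0 of the 10 in either. With the block it called Rbbp6 in XiO cells alone, at +0.38 (SE 0.081, limma adjusted p = 0.01526), with 9.3% of all genes called there and 12.1% in XX cells. In XX cells Rbbp6 gave +0.31, and the smallest adjusted p of a member was 0.0563. The stem cell marker sum of the WT XiO libraries was 465 to 641 CPM against 856 to 1480 CPM in D395A XiO, and the feeder sum 6.80 to 12.3 CPM against 0.718 to 1.93 CPM, with Postn and Lum at or near 0 in most libraries of the series. In D395A XX cells the stem cell sum was 1411 to 1440 CPM untreated and 1036 to 1118 CPM after dTAG, and 1273 to 1403 CPM under Dox and 1053 to 1118 CPM after dTAG and Dox. The D395A feeder sum went from 0.714 to 0.881 CPM up to 1.48 to 1.51 CPM in XX cells without Dox, from 0.751 to 0.927 up to 1.17 to 1.93 CPM in XiO cells without Dox, and from 0.718 to 1.34 up to 1.48 to 1.71 CPM in XiO cells with Dox. The part of these sums in the results was not tested. With the block and median-ratio scaling together, a setting chosen after the data were seen, 6 and 5 members were called in XX cells (31.3% and 37.4% of all genes) and 7 and 7 in XiO cells (29.3% and 34.3%). Rbbp6 stayed called in 3 of these 4 and not in XX cells without Dox, and the XX and XiO differences called 13.5% and 9.55% of all genes, the XiO one with Pcf11 (-0.38) in place of Rbbp6.

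No response of the 10 genes differed detectably with Dox in the degron lines. The change with Dox less that without was called for 0 of the 10 genes by limma in the METTL3, ZFC3H1, ZCCHC8 and both YTHDC1 comparisons, with 0 members at an unadjusted p under 0.05. Of all genes it was called for 0% (METTL3), 0.00722% (YTHDC1 shared table), 0.0219% (separate table), 0.238% (ZCCHC8) and 0% (ZFC3H1). The widest difference for Rbbp6 was -0.22 (SE 0.162) in ZCCHC8 and for Cstf3 +0.28 (SE 0.148) in METTL3.

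Beyond the 10 genes, 42 others of the pathway were listed: 15 of cleavage and polyadenylation, 10 of termination, 14 of Integrator, which cleaves nascent RNA near promoters, and 3 of cap binding. YTHDC1 loss called 1 higher and 4 lower with Dox and 4 and 5 without in the shared table, and 3 and 1, then 2 and 2, in the separate table. ZCCHC8 loss called 6 higher and 12 lower with Dox and 3 and 12 without, METTL3 loss 1 and 0, then 3 and 4, and ZFC3H1 loss and the unblocked transgene fits none in either direction. The 18 and 15 genes called on ZCCHC8 loss, 42.9% and 35.7% of the list, were near the 40.4% and 36.1% of all genes, and the 5 and 9 on YTHDC1 loss in the shared table were 11.9% and 21.4%, near 15.5% and 19%. The shares were 9.52% in each separate-table comparison, beside 14.7% and 17.8%, and 2.38% and 16.7% on METTL3 loss, beside 10.5% and 23.3%. The 0% on ZFC3H1 loss stood beside 3.15% and 2.15% of all genes, and the 0% in the unblocked transgene fits beside 0% to 6.01%. List medians stayed between -0.06 and +0.10 in the degron lines, beside all-gene medians from -0.02 to +0.23.

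Srrt, which encodes ARS2, the adaptor from the cap to nuclear RNA decay, was the lowest called pathway gene in 3 comparisons with Dox. It went from 136 (Y12H) and 138 CPM (Y9F) to 102 and 110 CPM on YTHDC1 loss in the shared table, a change of -0.37 (limma adjusted p = 0.00076598), and changed by -0.36 (adjusted p = 0.0013472) in the separate table. On ZCCHC8 loss it went from 127 (Z12H) and 171 CPM (Z4F) to 97.1 and 111 CPM, a change of -0.50 (adjusted p = 9.0222e-06). Ints5, an Integrator scaffold subunit, was the highest on YTHDC1 loss, from 10.8 and 12.04 CPM to 14.8 and 17.5 CPM in the shared table (+0.46, limma adjusted p = 0.0042249) and by +0.35 (0.028028) in the separate one. Clp1, the partner of Pcf11 in cleavage factor II, was the highest on ZCCHC8 loss, from 5.49 (Z12H) and 4.63 CPM (Z4F) to 9.81 and 8.95 CPM (+0.78, limma adjusted p = 0.00015341). Cpsf2, the partner of the Cpsf3 endonuclease, was the only pathway gene called on METTL3 loss with Dox, from 110 to 134 CPM under Dox to 163 to 184 CPM in the 4 clones (+0.56, limma adjusted p = 0.0051506), higher in all 4. Without Dox it went from 105 to 120 CPM to 194 to 209 CPM.

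For each of the 10 genes the gene with the most similar response was found by Pearson r over 40 clone or experiment pairs, each less its median over 12671 genes. These r describe pairs that share clones and tables, and carry no test. They were highest for Xrn2 with Dhx15 and Scaf8 with Ccny (0.942 each), then Cpsf6 with Zfp207 (0.924), Pcf11 with Dmtf1 (0.919), Rbbp6 with Rbbp8 (0.884), Zc3h4 with Wbp1l (0.854), Cstf3 with Tmem260 (0.847), Nudt21 with Ociad1 (0.845), Wdr82 with Srsf2 (0.812) and Cpsf3 with Nolc1 (0.665).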

How the data were processed

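The authors aligned paired-end strand-specific total RNA reads of chromatin-associated RNA to N-masked mm10 with STAR after removing ribosomal reads with Bowtie2, counted unique alignments over whole gene spans with featureCounts, and deposited the counts as CPM (counts scaled to library size) computed with edgeR. All deposited CPM values came out as whole reads within 0.02, so the read depth of each library was recovered. The dTAG time follows the sample titles, since another label gives 2 h, and the assignment of the YTHDC1 tables to experiments follows the replicate marks of titles and tables. Of the tables' columns, 12 match no labelled sample and were not used, and 5 allelic ratio tables were not used.

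Within each table, genes whose mean reached 1 CPM were fitted with limma 3.58.1 (lmFit, eBayes with trend; R 4.3.3) on log2(CPM + 1), two-sided, with the clone as a block in the degron lines and no block in the transgene lines, which are 1 clone each. edgeR 4.0.16 on the recovered reads, median-ratio scaling, a pseudocount of 0.25, no filter, only the groups compared, other blocks and leaving out each clone were alternatives. The scripts were tested on simulated data. The reporting summary states that wells of one biological replicate were split from the same cells, so experiment numbers pair the transgene samples. The deviations of same-numbered samples from their group means correlated at 0.79 to 0.88 (WT XX), 0.43 to 0.67 (D395A XX), 0.87 to 0.92 (WT XiO) and 0.72 to 0.89 (D395A XiO). No 2 libraries of a group were identical. The 10 genes, the pathway list and the marker lists were chosen with earlier results of these data known. All 10 genes are named. Of the pathway list, the highest and lowest called gene of each degron comparison with Dox are named, and for each of the 10 the gene with the highest correlation of responses. Gene bounds and mRNA ends come from the RefSeq annotation of mm10 (GRCm38).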

Additional observations from a re-analysis of the deposited data

Results flagged for a closer look

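The responses to ZCCHC8 and YTHDC1 loss, measured in 1 table, differed for 3 genes by the limma test of the difference itself. ZCCHC8 less YTHDC1, on the log2(CPM + 1) scale, Cstf3 differed by 0.5656 with Dox and 0.4269 without, Rbbp6 by -0.9103 and -0.739, and Zc3h4 by 0.4526 and 0.3562. The Cstf3 and Rbbp6 differences were called under all 5 alternatives in each setting. That for Zc3h4 was called under 4 of 5 with Dox and 3 of 5 without.

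Among the METTL3 clones, 7 values had one sign in both clones with an N-terminal tag and the other sign in both with a C-terminal tag. Of all genes tested, 17% had this pattern without Dox and 15.7% with Dox. The mean log2 change of the N-terminal clones less that of the C-terminal clones was 1.128 for Zc3h4, -0.4118 for Wdr82, -0.5565 for Pcf11, -0.7415 for Xrn2, -0.6472 for Nudt21 and -0.3025 for Cpsf6 without Dox, and 0.2768 for Scaf8 with Dox. For Zc3h4 with Dox the order was reversed, with mean changes of -0.05 in the N-terminal and +0.61 in the C-terminal clones. The all-gene medians with Dox were +0.03 (G4) and +0.07 (H1) against +0.38 (C3) and +0.30 (H5), and no value here is net of them. These differences between tag positions were not tested, and the tag position is shared by only 2 clones each. For the 10 genes in the METTL3 groups of 4 libraries, which gives 40 sets of 4 values, 0 values stood apart from the rest of their set by Dixon's test.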

How the results depend on the processing

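Counts of called members, of 10, moved under some settings. Without the low-value filter, 0 were called for METTL3 without Dox, 1 for YTHDC1 in the shared table with Dox, and 1 and 1 in the separate table with and without Dox. Over all genes that setting called 3079 of 20275, 1661 of 20630, 1140 of 19904 and 1536 of 19904, in that order. Without the replicate block of clones, 0 were called for METTL3 without Dox, 1 and 1 for YTHDC1 (shared), 0 and 0 for YTHDC1 (separate), 1 for ZCCHC8 without Dox, and 0 and 0 for ZFC3H1. All-gene calls were then 1096 of 13367 (METTL3), 460 and 730 of 13857 (YTHDC1 shared) and 6 and 23 of 13722 (separate). They were 2498 of 13857 for ZCCHC8 and 0 and 0 of 13544 for ZFC3H1. Fitting only the groups compared gave 0 for METTL3 without Dox, 4 for YTHDC1 in the shared table with Dox, 5 for ZCCHC8 without Dox, 2 and 2 for ZFC3H1, and 2 for D395A XX without Dox. Over all genes it called 2835 of 13376 (METTL3), 5178 of 13589 (YTHDC1) and 6410 of 13959 (ZCCHC8). It called 2155 of 13555 and 858 of 13516 for ZFC3H1 and 1703 of 13306 for D395A XX. Median-ratio scaling gave 1 for YTHDC1 in the separate table without Dox, 5 for ZCCHC8 with Dox and 1 for D395A XX without Dox, where edgeR also gave 1. With that scaling 2518 of 13725 genes were called for YTHDC1, 6616 of 13849 for ZCCHC8 and 746 of 13361 for D395A XX. Leaving out 1 clone gave 0 to 0 for METTL3 without Dox. In the YTHDC1, ZCCHC8 and ZFC3H1 lines it leaves 1 library per group. In the shared table its p-value then rests on the spread of the other line alone, so no counts are given. In the separate YTHDC1 and ZFC3H1 tables no residual degrees of freedom remain, and it is a value with no test. The replicate block of experiments, with which the numbers pair the samples, gave 3 (XX with Dox), 2 (XX without), 5 (XiO with) and 4 (XiO without) for D395A and 1 for the XiO difference, and together with median-ratio scaling, chosen after seeing the data, 6, 5, 7, 7 and 1. It changed no WT call. Over all genes the block moved the D395A calls from 426 to 3914, 803 to 5015, 7 to 4182 and 54 to 4623. The cause of these moves was not tested. No member changed direction under an alternative while called, and all 22 counts held with the other pseudocount. Members that were not called did change sign under median-ratio scaling, as in the METTL3 comparisons. With 2 clones or experiments in most groups, small changes cannot be told from none.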
